A study of Homo sapiens with 8 samples.

Results

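The aminoacyl-tRNA synthetases are the enzymes that load amino acids onto their tRNAs, and 37 genes of this machinery were followed here in a human liver cell line exposed to plastic antioxidants. The genes were taken from a fixed list of symbols and comprised 19 cytosolic synthetase genes, 16 mitochondrial synthetase genes (symbols ending in 2) and the scaffold genes AIMP1 and AIMP2. All 37 were found among the 60230 genes of the deposited count table, and all 37 passed the filter on low counts that left 13404 genes for testing. The cells were HepG2, a line from a human liver tumour, and every sample, controls included, overexpressed CYP3A4, a drug-metabolising cytochrome P450, under blasticidin selection. The control cells received 0.2% DMSO as the vehicle. The other groups received compound 4, a methylene-bridged bisphenol with a tert-butyl and a methyl group on each ring, compound 5, an ethylidene-bridged bisphenol with only tert-butyl groups on its rings, or compound 6, which carries a cyclohexyl group in place of the tert-butyl group of compound 4. Exposure lasted 24 h. Each compound was applied at its own half-maximal growth-inhibitory concentration, so concentrations differed between compounds. Each of the 4 groups held 2 samples, 8 in all, labelled day 1 and day 2 and called replicate 1 and 2 below. The labels do not say that the samples came from separate cultures, so p-values measure the spread between these samples, which may be technical.

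Each amino acid has a synthetase that recognises its cognate tRNAs and joins the amino acid to the tRNA end at the cost of ATP. Most human synthetases come as 2 nuclear genes, one for the enzyme of the cytosol and one for the enzyme imported into mitochondria, where a separate set of tRNAs serves the few proteins encoded by mitochondrial DNA. GARS1 and KARS1 encode the glycine and lysine enzymes of both compartments, and EPRS1 encodes one bifunctional protein for glutamate and proline. Several cytosolic enzymes are held in a large multi-synthetase complex around the scaffold proteins AIMP1 and AIMP2. When uncharged tRNA or other stresses lead to phosphorylation of the initiation factor eIF2, translation of the transcription factor ATF4 increases, and cytosolic synthetase genes are among its textbook target genes.

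The libraries held 9472261 to 13308975 estimated counts, of which the 37 genes took 0.405% to 0.506%. Levels are given as CPM, the counts of a gene scaled to a common library size with TMM factors, and 3 counts, the floor for detection, corresponded to 0.225 to 0.317 CPM, a limit for counting error only. All 10 hepatocyte marker genes examined were detected, with summed levels of 40682 to 42698 CPM in DMSO and of 32499 to 39333 CPM with the compounds. With compounds 4, 5 and 6, APOA1 (log2 fold changes -0.66, -0.78 and -0.74) and TF (-0.56, -0.40 and -0.55) were called lower. AFP was called lower with compounds 4 and 5 (-0.63 and -0.68). APOA2 (0.51) and TTR (0.66) were called higher with compound 4, and the other hepatocyte markers were not called. Of 8 markers of other cell types, 5 stayed below 1 CPM in every sample, among them the leukocyte marker PTPRC. The endothelial marker PECAM1 stood at 0.295 to 1.03 CPM. The macrophage marker CD68 stood at 38.5 and 27.2 CPM in the DMSO samples, against 56.3 and 57.6 (compound 4), 39.1 and 35.6 (compound 5) and 50.6 and 47.3 (compound 6), and was called higher with compound 4 (log2 fold change 0.80, SE 0.15, adjusted p = 0.0079). The smooth muscle marker ACTA2 stood at 18.9 and 15.9 CPM in the DMSO samples, against 13.4 and 12.4 (compound 4), 7.06 and 8.01 (compound 5) and 15.95 and 12.8 (compound 6), and was called lower with compound 5 (-1.20, SE 0.17, adjusted p = 0.000837). The summed level of the 8 markers was 43.9 to 58.6 CPM in DMSO, 71.2 to 71.5 with compound 4, 44.4 to 47.5 with compound 5 and 61.8 to 68.2 with compound 6, and their part in the synthetase values was not tested. CYP3A4 itself stood at 198 and 207 CPM in the DMSO samples, against 287 and 216 (compound 4), 371 and 421 (compound 5) and 170.5 and 171 (compound 6). Its level was higher with compound 5 than in DMSO by a log2 fold change of 0.97 (SE 0.13, adjusted p = 0.000724), and whether this bears on the synthetase genes was not tested. In compound 4, the genes of the top decile by exon length were lower in replicate 2 than in replicate 1 (median log2 difference -0.30) and those of the bottom decile were higher (0.17).

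In the main fit of all 8 samples, every member called higher against DMSO was a cytosolic synthetase gene, and the most were called with compound 5. Against DMSO, edgeR's quasi-likelihood test with Benjamini-Hochberg adjustment called 6 of 37 members with compound 4 (6 of 19 cytosolic, all higher), beside 11.9% of all genes tested, 6.50% higher and 5.42% lower. With compound 5 it called 14 of 37, namely 12 of 19 cytosolic genes higher and 2 of 16 mitochondrial genes lower, beside 28.1% of all genes, 13.9% higher and 14.2% lower. With compound 6 it called 7 of 37, all cytosolic and higher, beside 4.40% of all genes, 2.80% higher and 1.60% lower. The median log2 fold change of the 19 cytosolic genes was 0.24, 0.53 and 0.37 with compounds 4, 5 and 6, while that of the 16 mitochondrial genes was -0.06, -0.12 and -0.08 and that of all genes tested lay between -0.03 and 0.00. Without compound 4 replicate 1 the mitochondrial median with compound 4 was above 0 (0.0046). Without compound 5 replicate 1 that with compound 5 was -0.03. With compound 6 it was -0.02 without compound 6 replicate 1 and -0.04 without replicate 2. The 3 comparisons share the same 2 DMSO samples. With compound 4 no member was called without DMSO replicate 1 and none without DMSO replicate 2. With compound 6 none was called without either of these samples or without compound 6 replicate 2, and with compound 5 the count was 9 without compound 5 replicate 1. In the same fits the calls among all 13404 genes fell too. They went from 1598 to 663 and 335 with compound 4, from 590 to 90, 1 and 49 with compound 6, and from 3763 to 1680 with compound 5. Whether the members lost more calls than other genes was not tested. DESeq2 called 1476, 3105 and 764 of all genes with compounds 4, 5 and 6.

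**Figure D1:**
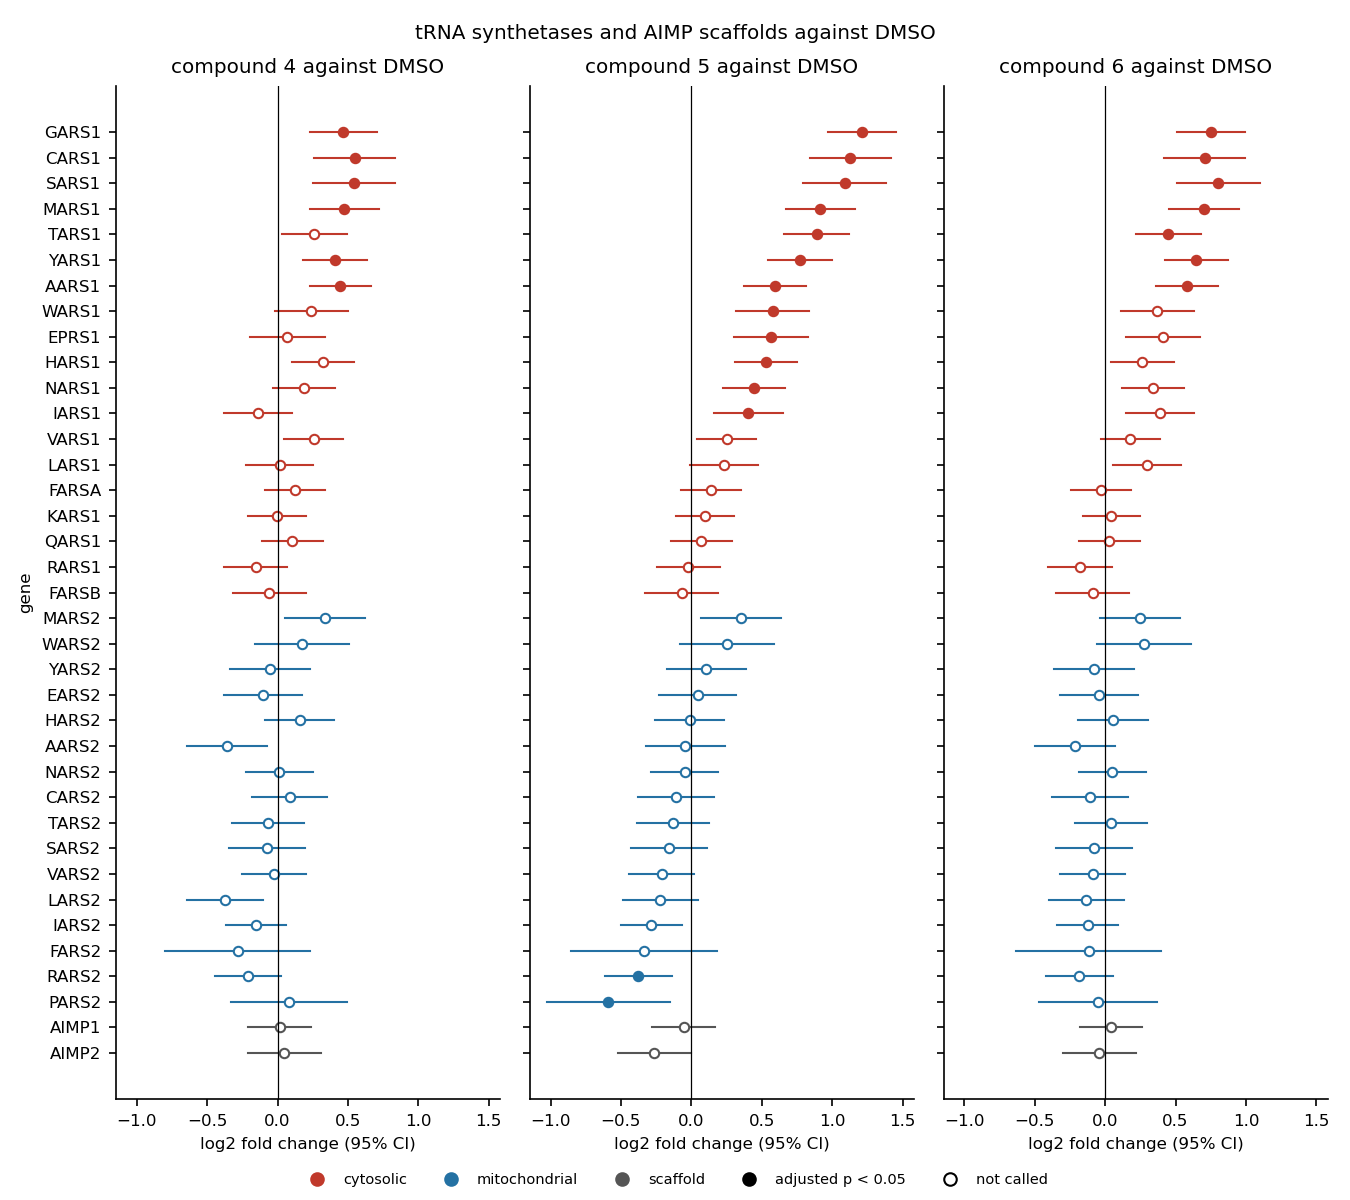
Log2 fold change against DMSO (x axis) of each of the 37 genes (y axis, ordered within each compartment by the value with compound 5), one panel per compound, with lines for the 95% confidence interval of the edgeR fit and filled points for an adjusted p under 0.05. The filled points are cytosolic genes to the right of 0 in all 3 panels and, with compound 5, also the mitochondrial genes PARS2 and RARS2 to the left of 0.

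The sum over the 19 cytosolic genes was 3061 and 3007 CPM in the DMSO samples, against 3606 and 3490 (compound 4), 4473 and 4393 (compound 5) and 3788 and 4136 (compound 6). The sum over the 16 mitochondrial genes was 749.8 and 761 CPM in the DMSO samples, against 702 and 728 (compound 4), 679 and 696 (compound 5) and 727 and 715 (compound 6). The cytosolic sum was thus higher in all 6 exposed samples than in the DMSO samples, and the mitochondrial sum was lower. The ratio of the cytosolic to the mitochondrial sum went from 4.08 and 3.95 in the DMSO samples to 5.14 and 4.79 (compound 4), 6.59 and 6.31 (compound 5) and 5.21 and 5.78 (compound 6). In these bulk samples fewer cells and less RNA per cell cannot be told apart, and the sums describe shares of each library.

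The promoters of the cytosolic members are shown first, because a single short sequence recurs in them. ATF4 binds DNA together with C/EBP proteins at a composite element of the form TGATGNAA, known from amino acid response genes. This motif was searched on both strands in RefSeq promoter windows (GRCh38.p14) from 250 bases before to 50 bases after each gene's start, and a match on the other strand is printed as its reverse complement. The table holds more than one start for some genes, 44 windows for the members in all, and a gene was counted if any of its windows held the motif. CARS1, GARS1 and TARS1 each had another window without it. Windows were at hand for 32 of the 37 members and not for AARS2, LARS1, VARS1, VARS2 and YARS1. The motif stood in 7 of 16 cytosolic genes (43.8%), in 1 of 14 mitochondrial genes (7.14%) and in neither scaffold gene, compared with 1217 of 27305 genes in the table with a window (4.46%). The matches are printed in the direction of the gene with up to 40 bases on each side, ending at most 30 bases after the start, with the motif in capitals.
AARS1 (chr16:70289646-70289733, minus strand): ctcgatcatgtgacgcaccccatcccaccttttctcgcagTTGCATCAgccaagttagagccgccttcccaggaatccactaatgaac
CARS1 (chr11:3057394-3057465, minus strand): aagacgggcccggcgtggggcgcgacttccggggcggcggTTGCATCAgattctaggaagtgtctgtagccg
GARS1 (chr7:30594805-30594892, plus strand): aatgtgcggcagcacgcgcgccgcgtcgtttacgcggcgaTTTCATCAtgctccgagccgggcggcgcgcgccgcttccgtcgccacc
IARS1 (chr9:92293668-92293750, minus strand): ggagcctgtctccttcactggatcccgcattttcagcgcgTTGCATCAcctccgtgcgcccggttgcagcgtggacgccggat
MARS1 (chr12:57488024-57488097, plus strand): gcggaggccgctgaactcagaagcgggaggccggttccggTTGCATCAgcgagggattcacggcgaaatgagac
NARS1 (chr18:57621807-57621862, minus strand): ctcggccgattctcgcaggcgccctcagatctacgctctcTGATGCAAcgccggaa
TARS1 (chr5:33440927-33440994, plus strand): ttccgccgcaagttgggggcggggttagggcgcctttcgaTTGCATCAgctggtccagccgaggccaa
YARS2 (chr12:32756047-32756134, minus strand): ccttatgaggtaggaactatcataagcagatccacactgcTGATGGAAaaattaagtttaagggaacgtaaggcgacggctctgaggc

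Relative to the RefSeq start of the window that holds it, the first base of the match lay 2, 4, 13 and 33 bases before the start in CARS1, MARS1, IARS1 and GARS1, and 3 and 15 bases into the transcript in TARS1 and NARS1. In AARS1 and in the mitochondrial YARS2 it lay farther away, 187 and 197 bases before the start. These starts lie inside the GENCODE 29 gene spans, in MARS1 by many kilobases, so the matches of CARS1, GARS1 and MARS1 are within the spans given below and not upstream of them. Of these 7 cytosolic genes, 4 were called higher with compound 4, all 7 with compound 5 and 5 with compound 6, with median log2 fold changes of 0.45, 0.89 and 0.58. Of the 9 cytosolic genes with a window and no match, 1, 4 and 1 were called with compounds 4, 5 and 6, with medians of 0.10, 0.14 and 0.04. Of all genes tested, 6.50%, 13.9% and 2.80% were called higher. The called genes without a match were SARS1 with every compound and EPRS1, HARS1 and WARS1 with compound 5, so a match was not found in every promoter of a called gene. A match describes these letters in these windows, and no binding was measured.

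**Figure D2:**
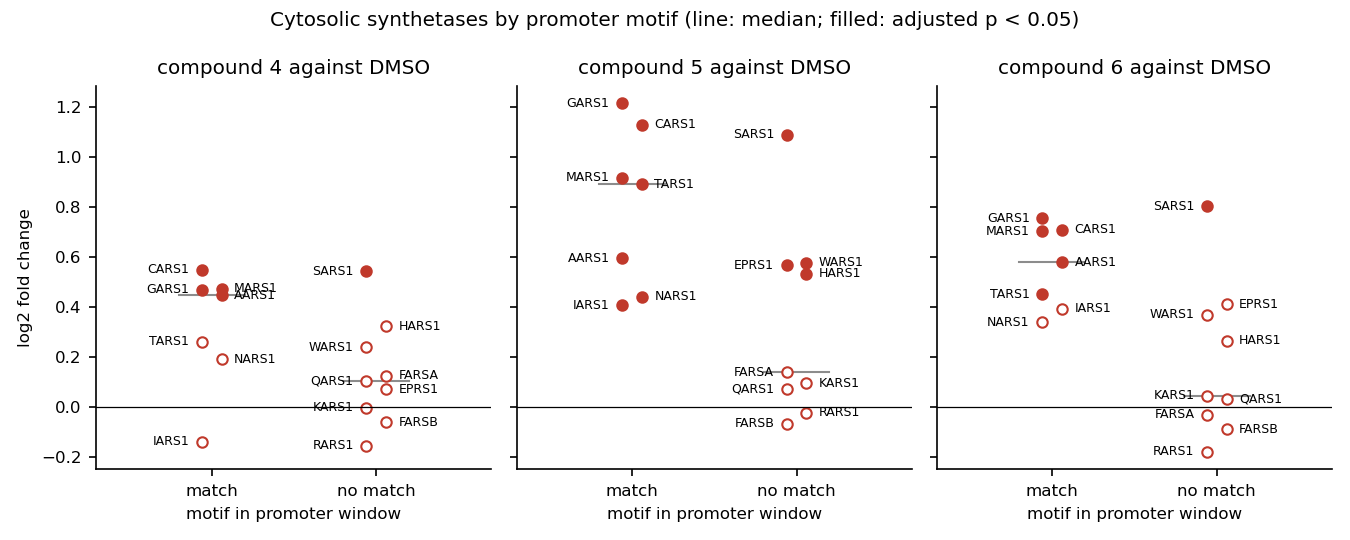
Log2 fold change against DMSO (y axis) of the 16 cytosolic genes with a promoter window, split by whether the window holds the TGATGNAA motif (7 genes) or not (9 genes), one panel per compound, with a bar at the median and filled points for an adjusted p under 0.05. With compound 5 the 7 genes with a match lie between 0.41 and 1.21, and the 9 without lie between -0.07 and 1.09.

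The largest rise among the members was that of GARS1 (chromosome 7, 30594681 to 30634033, plus strand), the glycine enzyme of both compartments. GARS1 stood at 234 and 221 CPM in the DMSO samples, against 330.2 and 298 (compound 4), 532 and 520.4 (compound 5) and 354 and 412 (compound 6). The samples with compound 5 were 2.32-fold above DMSO, a log2 fold change of 1.21 (SE 0.11, adjusted p = 9.83e-05), and all 6 exposed samples lay above both DMSO samples. With compounds 4 and 6 the log2 fold change of GARS1 was 0.47 (SE 0.11, adjusted p = 0.0197) and 0.75 (SE 0.11, adjusted p = 0.0066).

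The cysteine enzyme CARS1 and the serine enzyme SARS1 followed. CARS1 (chromosome 11, 3000922 to 3057613, minus strand) stood at 51.6 and 53.8 CPM in the DMSO samples, against 75.1 and 78.9 (compound 4), 115 and 115 (compound 5) and 74.4 and 97.4 (compound 6). Its level rose 2.18-fold with compound 5, a log2 fold change of 1.13 (SE 0.13, adjusted p = 0.000295), with 0.55 (SE 0.13, adjusted p = 0.0213) for compound 4 and 0.71 (SE 0.13, adjusted p = 0.0164) for compound 6. SARS1 (chromosome 1, 109213918 to 109238169, plus strand) stood at 86.8 and 81.5 CPM in the DMSO samples, against 126 and 119.5 (compound 4), 181 and 177 (compound 5) and 126 and 168 (compound 6). It rose by 1.09 (SE 0.13, adjusted p = 0.000386) on the log2 scale with compound 5, by 0.54 (SE 0.13, adjusted p = 0.0245) with compound 4 and by 0.80 (SE 0.13, adjusted p = 0.0119) with compound 6. In both genes all exposed samples lay above the DMSO samples, the replicates of compound 5 were nearly equal, and those of compound 6 lay apart, with replicate 2 the higher. The gap of SARS1 between the compound 6 replicates, 0.42 on the log2 scale, was the largest of the 37 genes in that group, and 15 of 19 cytosolic genes were higher in compound 6 replicate 2 than in replicate 1.

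MARS1 encodes the methionine enzyme, which also charges the initiator tRNA, and is a member of the complex. MARS1 (chromosome 12, 57475445 to 57517569, plus strand) stood at 180.0 and 183 CPM in the DMSO samples, against 256 and 248 (compound 4), 344 and 339.8 (compound 5) and 265 and 325 (compound 6). Its log2 fold change was 0.92 (SE 0.11, adjusted p = 0.000374) with compound 5, 0.70 (SE 0.11, adjusted p = 0.00986) with compound 6 and 0.47 (SE 0.11, adjusted p = 0.0204) with compound 4. MARS1 was the only one of the 7 complex enzymes examined that was called with all 3 compounds in this fit.

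The tyrosine enzyme YARS1 and the alanine enzyme AARS1 also rose with each compound. YARS1 stood at 156 and 158 CPM in the DMSO samples, against 201 and 216 (compound 4), 267 and 269 (compound 5) and 230.4 and 261 (compound 6). Its log2 fold changes were 0.41 (SE 0.10, adjusted p = 0.0262), 0.77 (SE 0.10, adjusted p = 0.000578) and 0.65 (SE 0.10, adjusted p = 0.0094) for compounds 4, 5 and 6. The YARS1 call with compound 4 was also lost in the fit of the compared groups alone and without compound 4 replicate 2, compound 5 replicate 1 or compound 5 replicate 2. AARS1 stood at 341 and 327 CPM in the DMSO samples, against 465 and 446 (compound 4), 513 and 496 (compound 5) and 471 and 527 (compound 6). Its log2 fold changes were 0.45 (SE 0.10, adjusted p = 0.016), 0.60 (SE 0.10, adjusted p = 0.0019) and 0.58 (SE 0.10, adjusted p = 0.0125). For levels per kilobase, the length is the union of all annotated exons of a gene. In DMSO, AARS1 had the highest level per kilobase of exon of all 37 genes, with a mean of 74.3 CPM per kb. With compound 5 it stood at 112 CPM per kb, below GARS1 at 127 CPM per kb. Its values with compounds 5 and 6 overlapped, unlike those of GARS1, CARS1 and SARS1, in which both compound 5 samples were above both compound 6 samples.

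The threonine enzyme TARS1 was called with compounds 5 and 6. TARS1 stood at 119.8 and 124 CPM in the DMSO samples, against 146 and 146 (compound 4), 221 and 230.3 (compound 5) and 153 and 179 (compound 6). Its log2 fold change was 0.89 (SE 0.11, adjusted p = 0.000337) with compound 5 and 0.45 (SE 0.11, adjusted p = 0.0399) with compound 6. The call with compound 6 was also lost without either compound 5 sample. With compound 4 it was 0.26 (95% confidence interval 0.03 to 0.49, adjusted p = 0.138), and the compound 4 samples lay above the DMSO samples without passing the test.

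In this fit a further 5 cytosolic genes were called with compound 5 and not with the others, which is not evidence that the compounds differ. They encode the tryptophan enzyme WARS1, with log2 fold changes of 0.24, 0.58 and 0.37 for compounds 4, 5 and 6, and the bifunctional EPRS1 with 0.07, 0.57 and 0.41. The histidine enzyme HARS1 had 0.32, 0.53 and 0.27, and the asparagine enzyme NARS1 had 0.19, 0.44 and 0.34. The isoleucine enzyme IARS1 had -0.14, 0.41 and 0.39. With compound 6, EPRS1 and IARS1 were called higher by DESeq2 (adjusted p = 0.0321 and 0.027), which called 9 of the 19 cytosolic genes, and also without the filter on low counts and in the fit of the compared groups alone. The adjusted p with compound 5 was 0.00506 for WARS1, 0.00624 for EPRS1, 0.00348 for HARS1, 0.00857 for NARS1 and 0.0195 for IARS1.

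IARS1 and NARS1 had the smallest rises among the 12. IARS1 stood at 222 and 243 CPM in the DMSO samples, against 227 and 195 (compound 4), 312 and 304 (compound 5) and 294 and 316 (compound 6). NARS1 stood at 144 and 144 CPM in the DMSO samples, against 171 and 158 (compound 4), 201 and 190.1 (compound 5) and 175 and 189 (compound 6). In both genes the compound 5 samples were above the DMSO samples, and the IARS1 values with compound 4 overlapped with those in DMSO. IARS1 and EPRS1 were lower in compound 4 replicate 2 than in replicate 1 (195 against 227 CPM and 207 against 257 CPM), as was the median of the genes with the longest exons in that sample. Of the cytosolic genes with longer annotated exons than IARS1, LARS1 was lower as well (121 against 144 CPM). The others, CARS1, YARS1 and HARS1, were higher (78.9 against 75.1, 216 against 201 and 101 against 99.4 CPM). The part of gene length in these values was not tested. The call of IARS1 with compound 5 was lost when libraries were scaled by their size alone, and without DMSO replicate 1, compound 5 replicate 1 or compound 5 replicate 2. That of NARS1 was lost without DMSO replicate 1 or compound 5 replicate 1, and that of EPRS1 without compound 5 replicate 1.

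**Figure D3:**
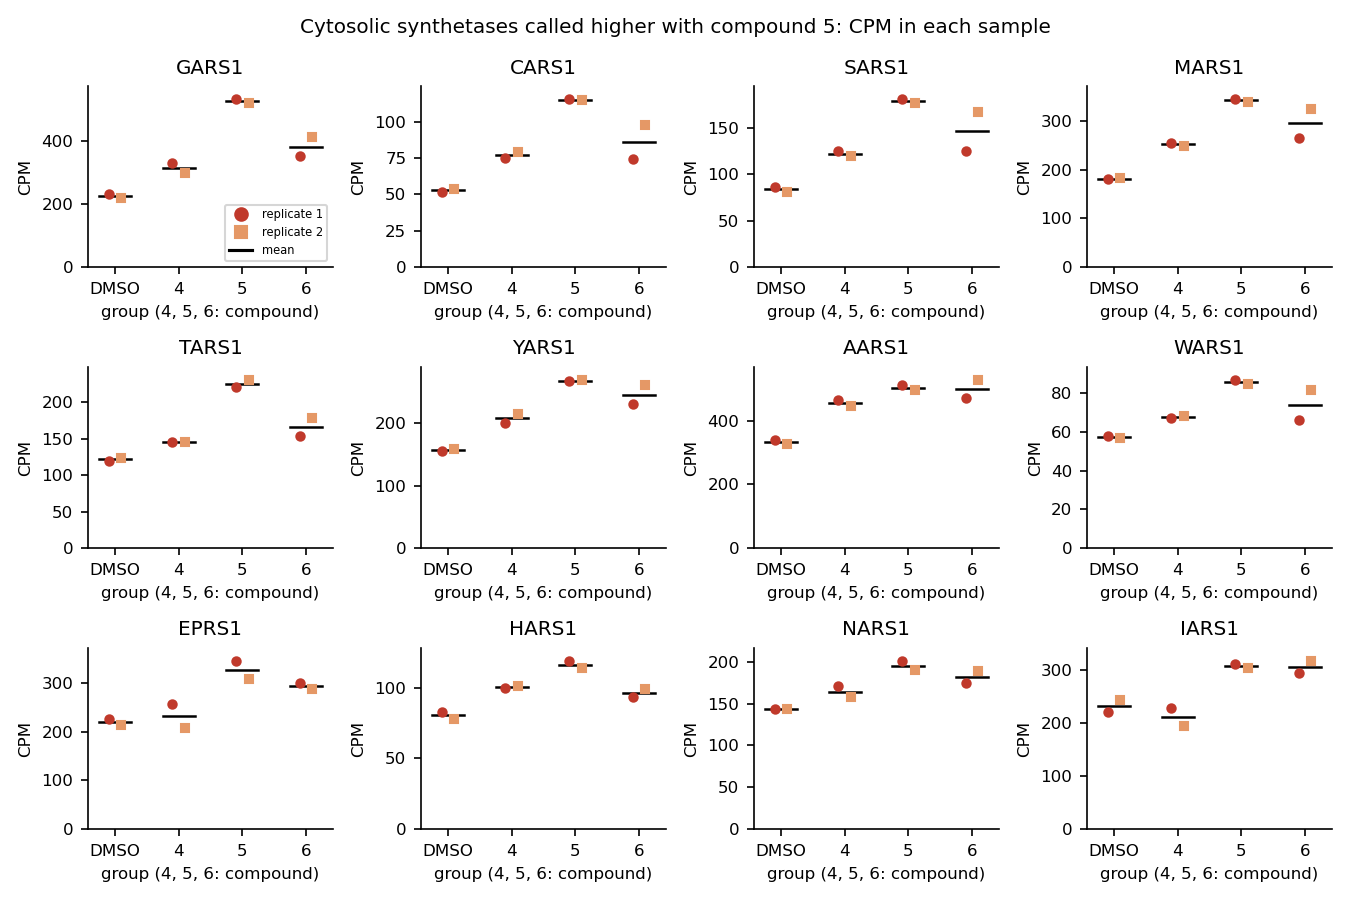
Level in CPM (y axis, from 0) of the 12 cytosolic genes called higher with compound 5, in each sample of the 4 groups (x axis), with circles for replicate 1, squares for replicate 2 and a line at the group mean of 2 samples. Both compound 5 samples lie above both DMSO samples in every panel, GARS1 from 221 and 234 CPM to 520 and 532 CPM.

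The other 7 cytosolic genes were not called with any compound. With compound 5 their log2 fold changes ran from -0.07 to 0.25, and their 95% confidence intervals stayed within -0.33 and 0.47. Only those of LARS1 and VARS1 reached the smallest rise called with this compound (IARS1, 0.41). KARS1, the lysine enzyme, stood at 246 and 234 CPM in the DMSO samples, against 243 and 236 (compound 4), 258 and 255 (compound 5) and 251 and 245 (compound 6), with log2 fold changes of 0.00, 0.09 and 0.04 for compounds 4, 5 and 6. Thus of the 2 synthetase genes that serve both compartments, GARS1 rose with each compound, whereas the interval of KARS1 with compound 5 was -0.11 to 0.30, below that of GARS1 (0.97 to 1.46). The subunits of the phenylalanine enzyme, FARSA and FARSB, had 0.14 and -0.07 with compound 5, the glutamine enzyme QARS1 had 0.07 and the arginine enzyme RARS1 had -0.02. The valine enzyme VARS1 had 0.25 (adjusted p = 0.071) and the leucine enzyme LARS1 had 0.23 (adjusted p = 0.133), and both were called with compound 5 when the fit held only the DMSO and compound 5 samples. In that fit the calls among all 13404 genes rose as well, from 3763 to 5049.

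The called genes lay both outside and inside the multi-synthetase complex, and the difference between the groups was not tested. Of the 12 cytosolic genes whose products are not held in the complex, 5, 9 and 6 were called higher with compounds 4, 5 and 6, with median log2 fold changes of 0.29, 0.59 and 0.41. Of the 7 complex enzymes (EPRS1, IARS1, KARS1, LARS1, MARS1, QARS1 and RARS1) 1, 3 and 1 were called, with medians of 0.01, 0.23 and 0.29, while DESeq2 called 1, 3 and 3. The share of all genes called higher by edgeR was 6.50%, 13.9% and 2.80%. The enzymes also fall into structural classes by the fold of their catalytic domain. Of the 9 class I cytosolic genes 3, 5 and 3 were called higher, and of the 9 class II genes 3, 6 and 4, with EPRS1, which holds one domain of each class, counted in neither.

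The scaffold genes AIMP1 and AIMP2 were called with no compound by edgeR or DESeq2, and 1 of them, AIMP2 with compound 5, had an unadjusted p under 0.05, as did 41.5% of all genes with that compound. AIMP1 stood at 78.5 and 74.5 CPM in the DMSO samples, against 77.6 and 76.9 (compound 4), 76.5 and 70.7 (compound 5) and 76.7 and 80.6 (compound 6), with log2 fold changes of 0.01, -0.06 and 0.04 for compounds 4, 5 and 6. AIMP2 stood at 82.9 and 69.1 CPM in the DMSO samples, against 75.2 and 81.8 (compound 4), 60.6 and 65.9 (compound 5) and 74.7 and 73.0 (compound 6), with 0.05, -0.26 and -0.04. The AIMP2 values with compound 5 were below both DMSO values (adjusted p = 0.116). AIMP2 was called lower with compound 5 when libraries were scaled by their size alone (adjusted p = 0.0336) or by the upper quartile (0.0495). Those scalings moved the median of all genes tested with compound 5 to -0.14 and -0.12.

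None of the 16 mitochondrial genes was called higher by edgeR in this fit, and 2 were called lower, both with compound 5. With compounds 4 and 6 edgeR called 0 of the 16, with 3 and 0 at an unadjusted p under 0.05 beside 27.0% and 20.0% of all genes, and DESeq2 called 0 with each of the 3 compounds. RARS2, the mitochondrial arginine enzyme (chromosome 6, 87514378 to 87590003, minus strand), stood at 38.6 and 39.5 CPM in the DMSO samples, against 33.3 and 34.2 (compound 4), 30.2 and 29.8 (compound 5) and 34.4 and 34.3 (compound 6). Its log2 fold change was -0.38 (SE 0.11, adjusted p = 0.0248) with compound 5, against -0.21 with compound 4 and -0.19 with compound 6, and all exposed samples lay below both DMSO samples. PARS2, the mitochondrial proline enzyme (chromosome 1, 54756898 to 54764514, minus strand), stood at 9.06 and 7.40 CPM in the DMSO samples, against 9.15 and 8.19 (compound 4), 5.22 and 5.65 (compound 5) and 8.65 and 7.25 (compound 6). Its log2 fold change was -0.59 (SE 0.20, adjusted p = 0.0462) with compound 5, 0.08 with compound 4 and -0.05 with compound 6, and PARS2 was among the lowest of the members, at 3.51 CPM per kb in DMSO. DESeq2 called neither gene (adjusted p = 0.0959 for RARS2 and 0.178 for PARS2). Both calls were also lost without the filter on low counts, and the PARS2 call with RLE scaling. The RARS2 call was lost without DMSO replicate 1, DMSO replicate 2, compound 5 replicate 1 or compound 5 replicate 2, and the PARS2 call held only without compound 4 replicate 1 among the 8 samples left out in turn.

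The other 14 mitochondrial genes had log2 fold changes with compound 5 from -0.34 (FARS2, the phenylalanine enzyme) to 0.35 (MARS2, the methionine enzyme). MARS2 stood at 24.9 and 24.7 CPM in the DMSO samples, against 29.3 and 33.2 (compound 4), 34.0 and 29.4 (compound 5) and 29.2 and 29.6 (compound 6), and all exposed samples lay above both DMSO samples. Its log2 fold changes were 0.34, 0.35 and 0.25 for compounds 4, 5 and 6, with an adjusted p of 0.0614 with compound 5, and it was called higher with RLE scaling (0.048) and in the fit of the DMSO and compound 5 samples alone (0.0319). IARS2, the isoleucine enzyme and the highest of the mitochondrial genes per kilobase (46.4 CPM per kb in DMSO), stood at 194 and 192 CPM in the DMSO samples, against 176 and 172 (compound 4), 162 and 155 (compound 5) and 186 and 169 (compound 6). With compound 5 its log2 fold change was -0.28 (adjusted p = 0.0514), and it was called lower with library size scaling, with upper-quartile scaling, in the fit of the DMSO and compound 5 samples alone (0.0377) and without compound 4 replicate 1 (0.0371). The fit of the DMSO and compound 5 samples alone called 5049 of all genes, against 3763 in the main fit. VARS2, the valine enzyme, had -0.21 with compound 5 and was called lower with library size scaling (-0.32, adjusted p = 0.038). With compound 4 the lowest were LARS2, the leucine enzyme, at -0.37 (adjusted p = 0.0719) and AARS2, the alanine enzyme, at -0.36 (adjusted p = 0.099). LARS2 stood at 51.5 and 55.9 CPM in the DMSO samples, against 44.2 and 38.7 (compound 4), and had -0.47 without compound 4 replicate 1. With compound 6 the mitochondrial genes ran from -0.22 to 0.27. Of the 31-base words in SARS2 and VARS2 transcripts, 42.0% and 22.8% also occur in other genes of GENCODE 29, mainly AC011455.2 and GTF2H4, so the counts of these genes depend on how reads were assigned.

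Setting each cytosolic gene beside the mitochondrial gene for the same amino acid gave 17 pairs, with FARSA and FARSB each beside FARS2 and EPRS1 beside EARS2 and PARS2. The log2 fold change was larger for the cytosolic gene in 16 of 17 pairs with compound 4, in 17 with compound 5 and in 17 with compound 6. The median of the differences was 0.22, 0.54 and 0.43 on the log2 scale. With compound 5 the widest pairs were SARS1 and SARS2 (1.09 against -0.16), CARS1 and CARS2 (1.13 against -0.11), EPRS1 and PARS2 (0.57 against -0.59) and TARS1 and TARS2 (0.89 against -0.13). The genes FARSA, FARSB and EPRS1 stand in pairs that share a member, so the pairs are not independent.

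**Figure D4:**
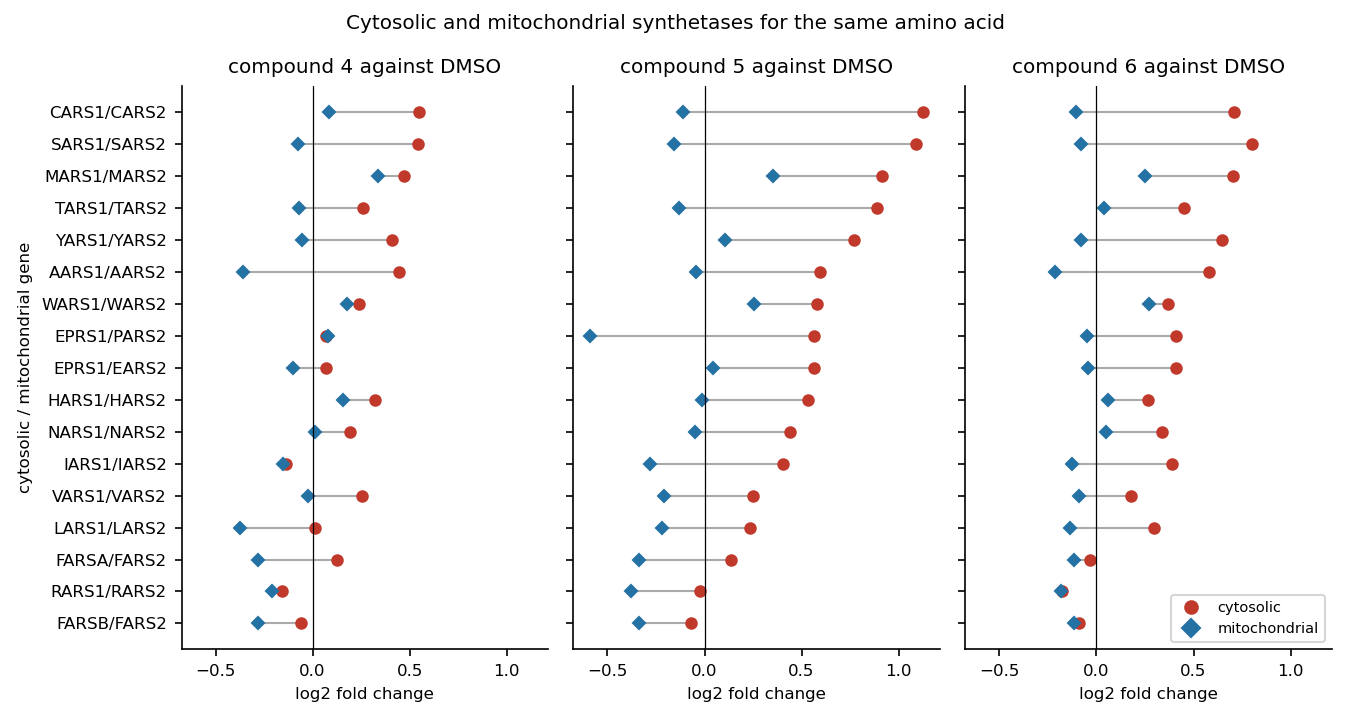
Log2 fold change against DMSO (x axis) of the cytosolic gene (circles) and the mitochondrial gene (diamonds) for the same amino acid, one row per pair and one panel per compound. With compound 5 the circle lies to the right of the diamond in 17 of 17 rows, by 0.27 to 1.25.

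The remaining pairs with compound 5 were YARS1 and YARS2 at 0.77 and 0.11, AARS1 and AARS2 at 0.60 and -0.04, and MARS1 and MARS2 at 0.92 and 0.35. HARS1 and HARS2 had 0.53 and -0.01, NARS1 and NARS2 0.44 and -0.05, and WARS1 and WARS2 0.58 and 0.25. EPRS1 had 0.57 beside 0.04 for EARS2, and IARS1 and IARS2 had 0.41 and -0.28. VARS1 and VARS2 had 0.25 and -0.21, and LARS1 and LARS2 0.23 and -0.22. RARS1 and RARS2 had -0.02 and -0.38, and FARSA and FARSB had 0.14 and -0.07 beside -0.34 for FARS2. In the arginine pair and for FARSB with FARS2 both values were below 0. HARS1 and HARS2 lie head to head on chromosome 5 and their annotated spans overlap (140673904 to 140691862 on the minus strand and 140691426 to 140699318 on the plus strand). In DMSO the cytosolic gene had the higher level per kilobase in 15 of 17 pairs, by a median ratio of 2.81, the exceptions being IARS1 with IARS2 (0.677) and HARS1 with HARS2 (0.985). These ratios depend on the annotated exon lengths, 7.40 and 4.165 kb for IARS1 and IARS2, and 7.85 and 3.74 kb for HARS1 and HARS2. In CPM the cytosolic gene was the higher in these pairs too, with DMSO means of 232 against 193 for IARS1 and 80.3 against 38.8 for HARS1.

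With compound 4 the pair differences ran from -0.01 (EPRS1 with PARS2) to 0.80 (AARS1 with AARS2), and with compound 6 from 0.01 (RARS1 with RARS2) to 0.88 (SARS1 with SARS2). In the order cytosolic, mitochondrial, the log2 fold changes with compound 4 were 0.45 and -0.36 for AARS1 and AARS2, 0.55 and 0.09 for CARS1 and CARS2, 0.54 and -0.08 for SARS1 and SARS2, 0.41 and -0.06 for YARS1 and YARS2, and 0.26 and -0.07 for TARS1 and TARS2. In these 5 pairs the cytosolic value was above 0, and the mitochondrial value was below 0 except in CARS2. The values were 0.47 and 0.34 for MARS1 and MARS2, 0.32 and 0.16 for HARS1 and HARS2, 0.19 and 0.01 for NARS1 and NARS2, 0.24 and 0.17 for WARS1 and WARS2, and 0.26 and -0.03 for VARS1 and VARS2. The remaining values with compound 4 were 0.07 and -0.10 for EPRS1 and EARS2, 0.07 and 0.08 for EPRS1 and PARS2, -0.14 and -0.15 for IARS1 and IARS2, 0.01 and -0.37 for LARS1 and LARS2, -0.16 and -0.21 for RARS1 and RARS2, 0.13 and -0.28 for FARSA and FARS2, and -0.06 and -0.28 for FARSB and FARS2. With compound 6 the first 5 pairs had 0.58 and -0.22 for AARS1 and AARS2, 0.71 and -0.11 for CARS1 and CARS2, 0.80 and -0.08 for SARS1 and SARS2, 0.65 and -0.08 for YARS1 and YARS2, and 0.45 and 0.04 for TARS1 and TARS2. The next 5 had 0.70 and 0.25 for MARS1 and MARS2, 0.27 and 0.06 for HARS1 and HARS2, 0.34 and 0.05 for NARS1 and NARS2, 0.37 and 0.27 for WARS1 and WARS2, and 0.18 and -0.09 for VARS1 and VARS2, and the tryptophan and methionine pairs held the highest mitochondrial values with both compounds. The last 7 had 0.41 and -0.04 for EPRS1 and EARS2, 0.41 and -0.05 for EPRS1 and PARS2, 0.39 and -0.12 for IARS1 and IARS2, 0.29 and -0.13 for LARS1 and LARS2, -0.18 and -0.19 for RARS1 and RARS2, -0.03 and -0.12 for FARSA and FARS2, and -0.09 and -0.12 for FARSB and FARS2.

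The compounds were also compared with each other, each at its own concentration, so that a difference in structure and a difference in concentration cannot be told apart. Between compound 5 and compound 4, which differ in the bridge and in the ring groups, 9 of 37 members were called, 8 cytosolic genes higher with compound 5 (GARS1, TARS1, CARS1, SARS1, IARS1, EPRS1, MARS1 and YARS1) and PARS2 lower, beside 13.9% of all genes tested, 6.91% higher and 7.04% lower. The difference was 0.75 (SE 0.11, adjusted p = 0.00543) on the log2 scale for GARS1, 0.63 (SE 0.10, adjusted p = 0.00778) for TARS1, 0.58 (SE 0.13, adjusted p = 0.0183) for CARS1 and 0.55 (SE 0.13, adjusted p = 0.0252) for SARS1. It was 0.55 (SE 0.11, adjusted p = 0.0138) for IARS1 and 0.50 (SE 0.12, adjusted p = 0.0252) for EPRS1, whose compound 4 replicates were the uneven ones described above. The EPRS1 call was lost in the fit of the compared groups alone and without compound 4 replicate 2, compound 5 replicate 1 or compound 5 replicate 2. For YARS1 it was 0.36 (SE 0.10, adjusted p = 0.0406), a call lost with upper-quartile scaling, with library size scaling, in the fit of the compared groups alone and without any 1 of the DMSO, compound 4 or compound 5 samples. For PARS2 it was -0.67 (SE 0.19, adjusted p = 0.0452), a call that was lost with the replicate number as a block (adjusted p = 0.0503), with DESeq2 (adjusted p = 0.144), with RLE scaling, in the fit of the compared groups alone and without any 1 of the 8 samples. AARS1 was not called, with a difference of 0.15 and an interval of -0.07 to 0.37. No member was called without compound 5 replicate 1, 1 without compound 5 replicate 2, 3 without compound 4 replicate 2, and 6 without DMSO replicate 1, while the calls among all genes went from 1869 to 111, 167, 579 and 1164.

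Between compound 5 and compound 6, which differ in the bridge and in the ring groups as well, 2 of 37 members were called, GARS1 and TARS1, both higher with compound 5, beside 9.91% of all genes, 4.76% higher and 5.16% lower. The difference was 0.46 (SE 0.11, adjusted p = 0.0265) for GARS1 and 0.44 (SE 0.10, adjusted p = 0.0272) for TARS1. CARS1 had 0.42 (interval 0.14 to 0.70, adjusted p = 0.0618) and was called by DESeq2 (0.0358) and without the filter on low counts (0.0137). Its difference was 0.42 without compound 4 replicate 1 or compound 4 replicate 2, and 0.65 without compound 6 replicate 2. SARS1 was not called and had 0.29, and 0.53 without compound 6 replicate 2. AARS1 had 0.02 (interval -0.20 to 0.23). No member was called without compound 5 replicate 1, compound 5 replicate 2 or compound 6 replicate 1, 1 was called without DMSO replicate 1, and 4 were called without compound 6 replicate 2, the sample with the higher cytosolic levels. The calls among all genes went from 1329 to 143, 278, 211, 856 and 1016 in these fits.

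Compounds 4 and 6 differ in a tert-butyl against a cyclohexyl group. Here edgeR called 0 of 37 members, beside 0.0448% of all genes, and 5 members had an unadjusted p under 0.05 (EPRS1, GARS1, IARS1, LARS1 and YARS1), each lower with compound 4, beside 9.81% of all genes. The largest difference was that of IARS1, -0.53 on the log2 scale (95% confidence interval -0.77 to -0.29, adjusted p = 0.173). DESeq2 called 1 member, IARS1 (adjusted p = 0.00586), beside 72 of all 13404 genes. The edgeR fit without a filter on low counts called IARS1 as well, beside 294 of 22717 genes. Without compound 4 replicate 1 the IARS1 difference was -0.65. For SARS1 the difference was -0.26 (interval -0.55 to 0.03), for CARS1 -0.16 (-0.44 to 0.12) and for AARS1 -0.13 (-0.35 to 0.09). The intervals of SARS1 and CARS1 reach the size of the smallest rise called between compounds 5 and 4 (YARS1, 0.36, a call that several alternatives lost), and that of AARS1 does not.

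**Figure D5:**
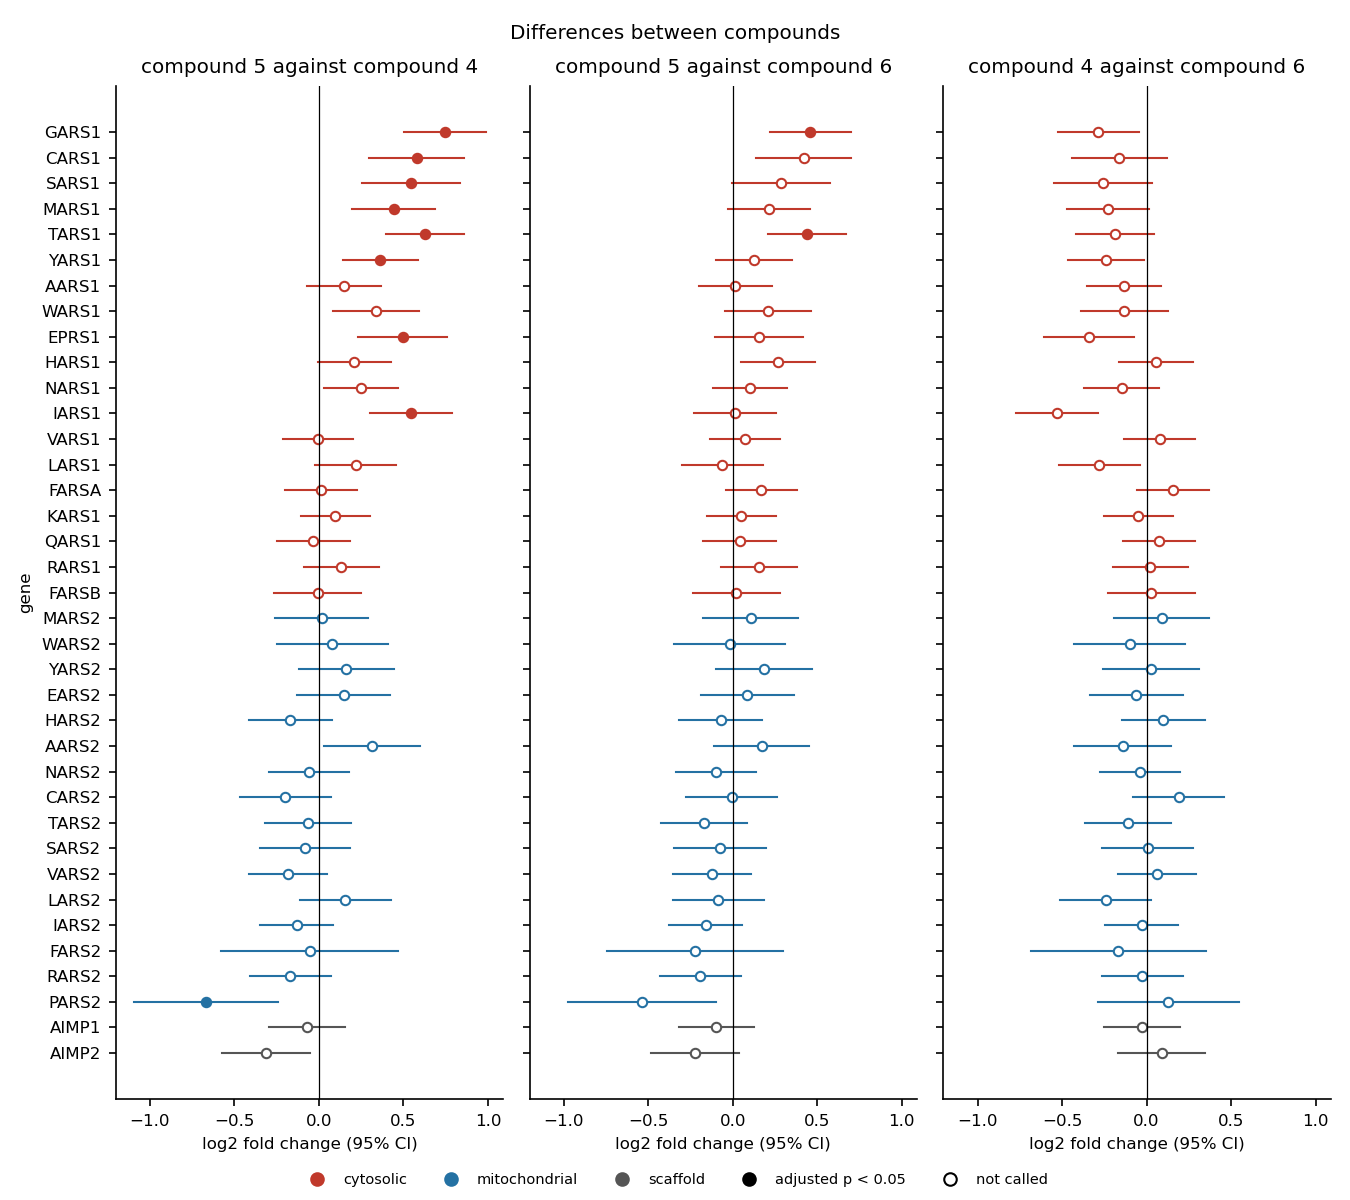
Difference between compounds on the log2 scale (x axis) for each of the 37 genes (y axis, same order as against DMSO), one panel per pair of compounds, with lines for the 95% confidence interval and filled points for an adjusted p under 0.05. Filled points number 9 for compound 5 against compound 4, 2 for compound 5 against compound 6 and 0 for compound 4 against compound 6.

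Of 10 other genes of tRNA charging, which supply or edit charged tRNA or belong to the complex, 0 were called higher with any of the 3 compounds against DMSO, and 1, 1 and 0 were called lower with compounds 4, 5 and 6, by edgeR, with the same counts by DESeq2. Of all genes tested, edgeR called 5.42%, 14.2% and 1.60% lower, and 1 of 10 is near the shares with compounds 4 and 5. At an unadjusted p under 0.05 in edgeR 2, 0 and 1 were higher and 1, 2 and 1 lower, beside 13.8%, 20.0% and 10.5% of all genes higher and 13.2%, 21.5% and 9.50% lower. The gene called by edgeR was GATC, a subunit of the mitochondrial glutamyl-tRNA(Gln) amidotransferase. GATC stood at 47.1 and 48.2 CPM in the DMSO samples, against 31.5 and 35.6 (compound 4), 34.3 and 36.0 (compound 5) and 36.0 and 38.2 (compound 6). All exposed samples lay below both DMSO samples, with a log2 fold change of -0.44 (SE 0.11, adjusted p = 0.0159) with compound 5, -0.51 (SE 0.11, adjusted p = 0.0165) with compound 4 and -0.36 (SE 0.11, adjusted p = 0.101) with compound 6.

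The amino acid response genes, a list of 25 with 24 tested (CHAC1 was too low), are set beside the synthetases because they share the ATF4 programme by textbook knowledge. With compounds 4, 5 and 6, 10, 18 and 15 of the 24 were called higher and 0 lower, with median log2 fold changes of 0.51, 1.11 and 0.57, beside 6.50%, 13.9% and 2.80% of all genes called higher and 5.42%, 14.2% and 1.60% lower. With compound 5 the highest were DDIT3, a transcription factor of the stress response (2.79 (SE 0.26, adjusted p = 0.000109)), PPP1R15A, a regulatory subunit that directs dephosphorylation of eIF2 (2.73 (SE 0.27, adjusted p = 0.000152)), SLC3A2, the heavy chain of amino acid transporters (2.46 (SE 0.18, adjusted p = 3.71e-05)), and SLC7A11, the cystine transporter (2.27 (SE 0.24, adjusted p = 0.0002)). The highest synthetase, GARS1, had 1.21 in the same fit.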

How the data were processed

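RNA of 8 samples was sequenced from directional mRNA libraries. The authors deposited one table of estimated counts per gene for 60230 Ensembl genes, made with Salmon 1.5.0 on GRCh38 and GENCODE 38 and summarised per gene. The submitters' processing notes also name FastQC 0.12.0 and DESeq2 1.38.3. For compounds 4 and 5, replicate 1 merged reads of 2 sequencing indices, and the strand setting of the counting is not given in the sources used here. The values were whole numbers with no scaling, and library totals ranged from 9472261 to 13308975.

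From there, edgeR 4.0.16 (R 4.3.3) fitted the 4 groups in one model without covariates, with filterByExpr (13404 genes), TMM scaling and the quasi-likelihood F-test, and Benjamini-Hochberg adjusted p under 0.05 counted as a call. Standard errors and 95% confidence intervals came from the same fit. Alternatives were DESeq2 1.42.0, other scalings and filters, fits of the compared groups alone, a replicate block, a cutoff of 0.01 and leaving out each sample. The test was checked on simulated tables (compound 5 against DMSO, 13404 genes), 5 for each size of change, in which only a small part of the genes was changed. There 72% of genes changed by 1 on the log2 scale were recovered, with 9.21% of calls false. Of genes changed by 0.5, 1.8% were recovered, with 30.8% of calls false. In the data 28.1% of genes were called with compound 5, so these rates may not hold for the calls reported here. An exact permutation test of 2 against 2 samples cannot go below p = 0.333 and was not used. Replicates differed by more than counting noise in each group (chi-square per degree of freedom 5.67 to 18.0).

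Replicates carry the numbers of days in the labels, from which the pairing by day comes. Same-numbered samples deviated together only weakly, with correlations from -0.11 to 0.22 over the pairs of groups. Exon lengths (the union of all annotated exons of a gene), positions and shared 31-base words came from GENCODE 29 (GRCh38). Promoter windows came from RefSeq (GRCh38.p14), of which 38 of 44 held their first 30 transcribed bases in a GENCODE 29 transcript of the gene. Values by sample are given for the called members with the 4 highest and 4 lowest log2 fold changes in each comparison with DMSO, for every member called with compounds 4 and 6, for AIMP1, AIMP2, GARS1 and KARS1, and fold changes for each pair of cytosolic and mitochondrial genes. The members and the gene lists were chosen with earlier results of these data known. Results for some genes related to tRNA charging are not reported here.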

Additional observations from a re-analysis of the deposited data

How the results depend on the processing

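Every member called against DMSO or between compounds kept its direction under all alternatives run. The counts of members called moved with the cutoff and with the samples left out. At an adjusted p under 0.01, the counts against DMSO were 0 with compound 4, 11 with compound 5 and 3 with compound 6, against 6, 14 and 7 at 0.05. Between compounds they were 2 for compound 5 against compound 4 and 0 for compound 5 against compound 6, against 9 and 2 at 0.05. The share of all genes called at 0.01 was not counted. For compound 4 against compound 6, DESeq2 called 1 member and the edgeR fit without a filter on low counts 1, where the main fit called 0. Of all genes these fits called 72 of 13404 and 294 of 22717, against 6 of 13404 in the main fit. Leaving out each sample in turn gave 0 to 6 members with compound 4, 9 to 17 with compound 5 and 0 to 10 with compound 6, beside 335 to 1703, 1680 to 4519 and 1 to 1096 of all 13404 genes. The same gave 0 to 9 for compound 5 against compound 4, 0 to 4 for compound 5 against compound 6 and 0 to 1 for compound 4 against compound 6, beside 111 to 2709, 143 to 1875 and 0 to 117 of all genes. The cause was not tested, and fits without a sample leave a group with 1 sample, which is assumed to vary like the others.

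A fit with a replicate block gave counts of 6, 14 and 7 with compounds 4, 5 and 6 against DMSO, and of 8, 2 and 0 between compounds in the order above, PARS2 being the call lost, while no other member's call changed. The block stands for the day in the labels. The scaling by library size and by the upper quartile lowered the share of higher calls among all genes from 49.3% to 33.3% and 36.6% with compound 5, from 49.5% to 31.3% and 33.0% for compound 5 against compound 4, and from 48.0% to 28.4% and 28.7% for compound 5 against compound 6. DESeq2 raised these shares to 56.8%, 63.8% and 60.6%, and RLE scaling to 53.1%, 56.8% and 54.3%. Under library size and upper-quartile scaling the median log2 fold change with compound 5 was 0.43 and 0.45 for the cytosolic genes and -0.23 and -0.21 for the mitochondrial genes. With 2 samples a group, the 95% confidence intervals of members not called with compound 5 ran from -0.86 to 0.63 on the log2 scale, and from -0.33 to 0.47 among the cytosolic genes.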

Other observations

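Genes that act after tRNA charging were counted in the same fits, in which edgeR called 11.9%, 28.1% and 4.40% of all genes with compounds 4, 5 and 6 against DMSO. Of 10 mitochondrial translation factors, it called 0, 1 and 0, the one being the release factor MTRF1, lower with compound 5 (log2 fold change -0.57, SE 0.19, adjusted p = 0.0431), and DESeq2 called 0. Their median log2 fold changes were -0.08, -0.07 and 0.03, and at an unadjusted p under 0.05 there were 0, 4 and 0, beside 27.0%, 41.5% and 20.0% of all genes. Of 6 cytosolic elongation factor genes, 5 were tested. EEF2, which drives translocation of the ribosome, stood at 4933 and 4595 CPM in the DMSO samples, against 6392 and 6037 (compound 4), 6441 and 6469.5 (compound 5) and 5638 and 6311 (compound 6). It was the only one of the 5 that edgeR called, higher with compound 4 (0.38, SE 0.10, adjusted p = 0.036) and compound 5 (0.44, SE 0.10, adjusted p = 0.0107). With compound 6 edgeR called 0 of the 5 (EEF2: 0.33, SE 0.10, adjusted p = 0.102), and DESeq2 called 1.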
